A study of Mus musculus with 21 samples.

Results

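Lin28a, Lin28b, Hmga1, Hmga2, Igf2bp1, Igf2bp2, Igf2bp3, Arid3a, Dis3l2 and Nras, genes of the LIN28 and let-7 circuit, were followed through 21 RNA-seq libraries of mouse embryonic stem cells. They were taken by gene symbol, and they make up 10 of the 22512 genes in the deposited table. All cells came from the mES line of strain 129S6/SvEvTac. Every group, controls included, carried the GFP reporter GFP_5xT71BS and a stably transfected FLAG-Cas9 linked to blasticidin resistance, and was grown on gelatin with serum and LIF. Experiment 1 compared the parental line (W) with Trim71-/- (Trim71KO) and Ago2-/- (Ago2KO) lines derived from it. Experiment 2 compared parental cells transfected with pCIP FH-T6B_WT::mCherry (T6B_WT) with cells given the mutant FH-T6B_MUT (T6B_MUT). It also held Trim71-/- and Ago2-/- cells given an empty plasmid (Trim71KO_empty, Ago2KO_empty). Each group had 3 libraries, described as biological replicates. The series asks how distinct RNA-silencing routes meet on the GW182/TNRC6 proteins, which recruit mRNA decay enzymes. The labels do not say whether an edited line is 1 clone. Experiment 2 had no parental cells with empty plasmid, so plasmid and genotype cannot be told apart in Trim71KO_empty or Ago2KO_empty against T6B_MUT.

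let-7 is a family of microRNAs that is scarce in stem cells and abundant in differentiated cells. LIN28A and LIN28B bind let-7 precursors and block their maturation. The terminal uridylyl transferases TUT4 and TUT7 add a uridine tail to the bound precursor, and the exonuclease DIS3L2 degrades the tailed RNA. Mature let-7, loaded on Argonaute proteins such as AGO2, represses mRNAs that pair with its seed, among them Lin28b, Hmga2, the Igf2bp genes, Arid3a, Nras and Trim71. TRIM71, also called LIN41, is an RNA-binding protein that represses mRNAs in its own right. T6B is a fragment of TNRC6B that binds Argonaute and keeps TNRC6 away from it. Many of these genes are called oncofetal, since they are active in the embryo, silent in most adult tissue and active again in tumours.

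The mature let-7 sequences are shown because their common seed is what links most of the 10 genes. RefSeq (GRCm38.p6) listed 11 mature let-7 family names from 13 loci, and 10 of them shared the seed GAGGUAG (bases 2 to 8, in capitals). The exception was let-7j, with the seed GAGGUAU. Family members (3) and 3 other microRNAs known from stem cells are given below 5′ to 3′, the seed again in capitals.
mmu-let-7a-5p: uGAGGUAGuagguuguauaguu
mmu-let-7g-5p: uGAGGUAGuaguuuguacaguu
mmu-miR-98-5p: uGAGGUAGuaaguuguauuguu
mmu-miR-125a-5p: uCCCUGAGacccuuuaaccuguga
mmu-miR-291a-3p: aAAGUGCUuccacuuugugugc
mmu-miR-302b-3p: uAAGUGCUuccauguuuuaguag

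A match to the let-7 seed (CTACCTC, read on the transcript strand) stood in the longest annotated 3′ UTR of 9 of the 10 genes, Dis3l2 being the one without. Across 14329 tested genes with an annotated 3′ UTR, 10.3% held such a match, but long UTRs hold more by length alone. Beside each gene the share among UTRs within 20% of its length is therefore given. The UTRs of Lin28b, Hmga2 and Igf2bp1 held 4 matches each. A count of 4 or more occurred in 0.201% of UTRs of like length for Lin28b, 0.117% for Hmga2 and 0.230% for Igf2bp1. Lin28a and Arid3a held 2, as did or exceeded 2.26% and 2.67% of UTRs of like length. Igf2bp2, Igf2bp3, Hmga1 and Nras had a single match, which 12.5%, 13.3%, 9.22% and 19.9% of UTRs of like length also had at least once. One site for each gene is printed with its flanks (GRCm38, transcript strand, seed match in capitals), because these are the places where let-7 could pair.
Lin28a, chr4:134005185-134005210, minus strand: cacagcctgttgaaCTACCTCatttt
Lin28b, chr10:45381018-45381043, minus strand: cccgggcgggaagtCTACCTCatgca
Igf2bp1, chr11:95961774-95961799, minus strand: ctgtgcgaagtaaaCTACCTCaaggt
Igf2bp2, chr16:22059469-22059494, minus strand: cacacaaataaaagCTACCTCaggtg
Igf2bp3, chr6:49086783-49086808, minus strand: gcatttttactcaaCTACCTCaggta
Hmga1, chr17:27563278-27563303, plus strand: cctctgttcacaaaCTACCTCtggac
Hmga2, chr10:120364220-120364245, minus strand: ccgacattcaatttCTACCTCagcat
Arid3a, chr10:79953896-79953921, plus strand: aggcaagtttctttCTACCTCaggtc
Nras, chr3:103064360-103064385, plus strand: cctcttcagaataaCTACCTCctcac

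Arid3a stood out for another family. Its 3′ UTR of 3082 bases held 6 matches to the miR-125 seed (CTCAGGG), a number reached by none of the 1687 UTRs of like length, although 28.0% of them had at least 1. One of the 6 is printed here as an example.
Arid3a, chr10:79952873-79952898, plus strand: gtggcctcctgtgcCTCAGGGatgac
Nras had 2 matches to the seed shared by miR-291a and miR-302b (AGCACTT), and Lin28b and Igf2bp1 had 1 each. Among UTRs of like length 7.66% held as many as Nras or more, and at least 1 match stood in 42.7% for Lin28b and 57.5% for Igf2bp1. Over all 3′ UTRs, 15.3% held a miR-125 match and 16.9% a miR-291a or miR-302b match. Matches are strings of letters in the annotated UTR, and whether any is used in these cells was not measured.

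**Figure D1:**
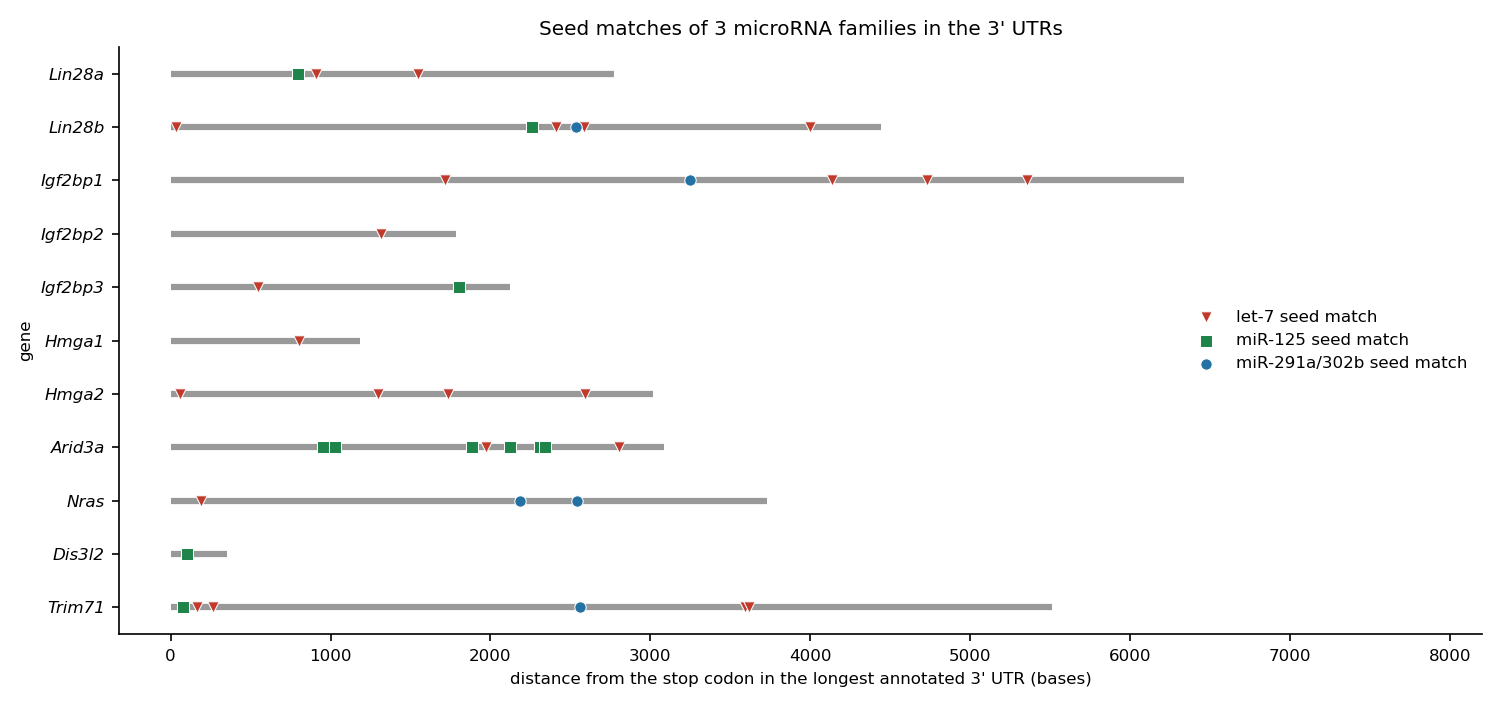
Position of seed matches in the longest annotated 3′ UTR (grey bar, bases from the stop codon on the x axis) of each of the 10 genes and of Trim71, shown for reference. Triangles are let-7 matches, squares miR-125 and circles miR-291a or miR-302b; Lin28b, Igf2bp1 and Hmga2 carry 4 triangles each and Arid3a 6 squares.

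Library totals ran from 29561125 to 50826201 counts in Experiment 1 and from 33910145 to 57872324 in Experiment 2. Levels below are CPM (counts scaled to a common library size) scaled with edgeR's TMM factors within each experiment, so a level in one experiment is not set against one in the other. The summed level of 8 embryonic stem cell markers, which include Pou5f1 and Nanog, lay between 3533 and 4965 CPM in every library, with 4528 to 4965 in the 6 Trim71-edited libraries. At an edgeR adjusted p under 0.05, 5 of the 8 were higher and 1 lower in Trim71KO against W. The lower one was Dppa4, at 68.93 to 70.77 CPM against 87.24 to 88.25. Pou5f1 and Nanog went opposite ways in T6B_WT and Ago2KO_empty. Pou5f1 was at 780 to 860.9 and 662.7 to 848.4 CPM there, against 926.8 to 988.8 in T6B_MUT. Nanog was at 392.1 to 429.4 and 391.9 to 427.3, against 349.5 to 353.3. Against T6B_MUT, 2 of the 8 were called higher and 1 lower in each of these groups, with 16.0% and 28.8% of all genes called. Markers of other lineages were low but differed between groups: 5 endoderm markers summed to 18.07 to 21.06 CPM in W, 3.412 to 3.697 in Trim71KO and 5.977 to 7.645 in Ago2KO. In Experiment 2 they summed to 13.77 to 14.12 in T6B_MUT, 11.67 to 13.42 in T6B_WT, 5.519 to 7.614 in Trim71KO_empty and 9.117 to 12.62 in Ago2KO_empty. Sox7, one of these endoderm markers, went against the sum in Trim71KO_empty, at 1.518 to 2.288 CPM against 0.9814 to 1.317 in T6B_MUT. The 3 neural markers summed to 11.34 to 13.64 CPM in W, 12.56 to 16.66 in Trim71KO and 18.72 to 19.65 in Ago2KO. In Experiment 2 they summed to 15.61 to 17.47 in T6B_MUT, 26.65 to 28.58 in T6B_WT, 8.959 to 11.04 in Trim71KO_empty and 20.65 to 21.8 in Ago2KO_empty. The neural sum hides opposite changes in Trim71KO against W. Sox1 was at 10.56 to 14.56 CPM against 7.532 to 9.128, and Neurod1 at 1.668 to 1.908 against 3.298 to 3.904. Pax6 was at 0.3012 to 0.3335 against 0.5107 to 1.157. In Ago2KO_empty Sox1 lay below T6B_MUT, at 7.818 to 9.936 CPM against 11.01 to 12.4, although the sum was higher. Trophoblast, mesoderm and fibroblast marker sums were at most 11.65 CPM, Cdx2 and Col1a2 being at 0 in some libraries. The part of these cells in the results below was not tested, and in bulk RNA fewer cells of a type cannot be told apart from less RNA per cell.

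Trim71 mRNA was still present in the Trim71-edited cells: 412 to 459 CPM in Trim71KO against 602 to 618 in W, and 393 to 409 in Trim71KO_empty against 482 to 503 in T6B_MUT. Lower Trim71 mRNA was not confined to these groups. It was at 503.8 to 522.3 CPM in Ago2KO, called lower than W, and at 416.5 to 445.1 in T6B_WT, below T6B_MUT without a call. The libraries labelled Ago2KO_empty had 419.3 to 564.2. Ago2 stood at 39.8 to 43.6 CPM in Ago2KO against 134 to 153 in W. It was at 133 to 156.4 in Trim71KO, 114.4 to 124 in Trim71KO_empty and 162.8 to 185.2 in T6B_WT, the last above T6B_MUT without a call. In the libraries labelled Ago2KO_empty it was 87.4, 167 and 45.6 CPM, against 112 to 143 in T6B_MUT. Replicate 2, at 167 CPM, goes against its label, and replicate 1, at 87.4 CPM, lies between replicate 3 and the control. Not all genes of replicate 2 were at the control level. Nras was at 145.6 CPM there, against 142.6 and 147.9 in replicates 1 and 3 and 188 to 206.5 in T6B_MUT. Igf2bp3 was at 80.55 CPM, against 73.23 and 71.82, and 107 to 118.1 in T6B_MUT. Igf2bp1, at 672.2 CPM, lay above replicates 1 and 3 (511.6 and 441.8) and T6B_MUT (521 to 537.9). Hmga2, at 19.27, lay within T6B_MUT (18.18 to 20.06). Whether replicate 2 is mislabelled or mixed was not tested. Ago2 was not called lower in Ago2KO_empty with all 3 libraries (log2 -0.30, edgeR adjusted p = 0.601), and was without replicate 2 (-0.90, edgeR adjusted p = 0.0382). Changes of the 10 genes in this group are given with and without the second library, and those without it still rest in part on the first. Without the second library the genes called in T6B_WT against T6B_MUT went from 3437 to 4212.

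Among the 10 genes, levels per length (the deposited RPKM) spanned from 147.4 ± 15.6 (SD, n = 3) for Hmga1 to 2.50 ± 0.179 for Dis3l2 in W. Lin28a followed at 126.9 ± 4.9, overlapping Hmga1 between libraries. Igf2bp1 (65.6), Nras (34.4), Igf2bp2 (9.99), Igf2bp3 (7.60) and Lin28b (3.82) came next, in that order and without overlap. Arid3a (3.03) and Hmga2 (2.86) overlapped. In T6B_MUT the first 4 places were the same, Igf2bp3 (13.5 RPKM) stood above Igf2bp2 (7.56), and Dis3l2 (3.68) stood above Arid3a, Lin28b and Hmga2, whose libraries overlapped between neighbours. Lin28a was thus the main LIN28 mRNA by this measure, and Igf2bp1 the main Igf2bp mRNA.

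**Figure D2:**
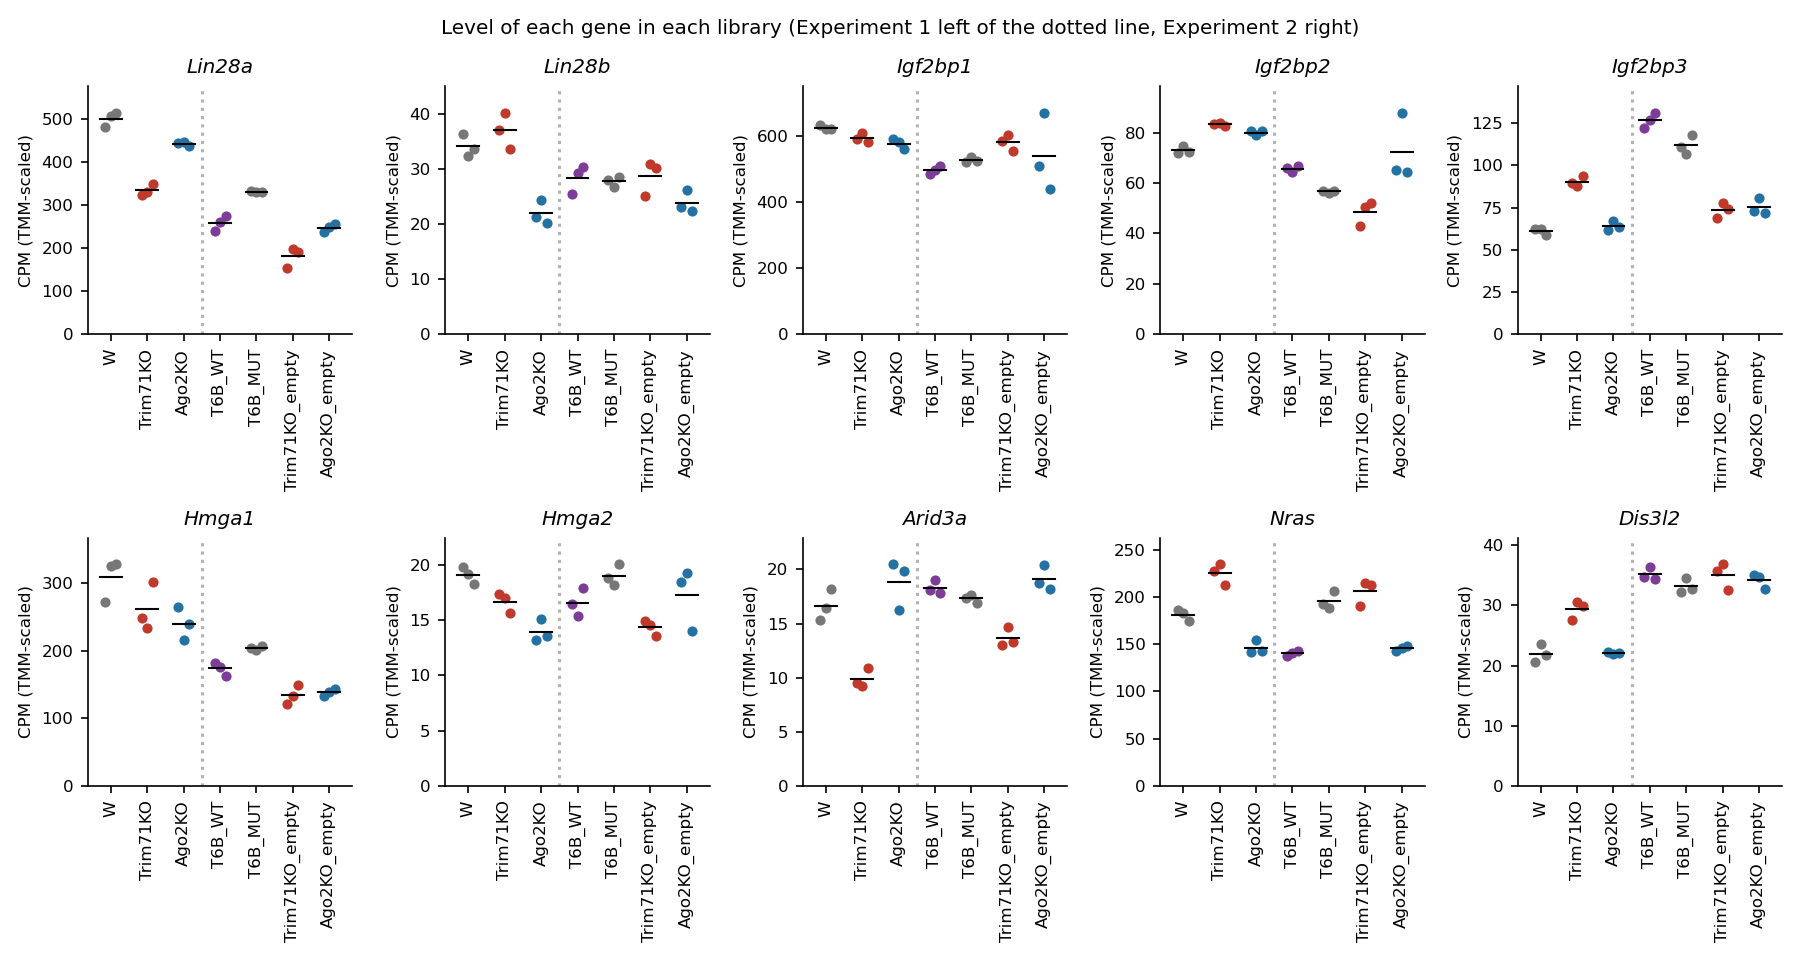
CPM (y axis, from 0) of each gene in each of the 21 libraries, by group; points are libraries and bars the group means. Lin28a is lower than its control in every edited or T6B_WT library, for example 325 to 350 CPM in Trim71KO against 481 to 515 in W.

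Each comparison was fitted over all genes with edgeR's quasi-likelihood F test, and a gene was called at a Benjamini-Hochberg adjusted p under 0.05. All 10 genes were tested in every comparison. Shares of all genes are given at this threshold only. The unadjusted and DESeq2 counts have no such share beside them and are not to be set against these. In Trim71KO against W, 4 of the 10 rose and 2 fell, where 32.6% of all genes tested were called. Ago2KO against W had 0 higher and 4 lower calls against a background of 18.0%; at an unadjusted p under 0.05 the counts were 1 and 6, and DESeq2 called 0 and 5. T6B_WT against T6B_MUT had 0 higher and 3 lower calls with 16.0% of genes called (1 and 3 unadjusted, 0 and 3 in DESeq2), and without the second library labelled Ago2KO_empty 1 and 3. Trim71KO_empty against T6B_MUT had 0 higher and 5 lower calls with 27.8% called (0 and 6 unadjusted, 0 and 5 in DESeq2), or 0 and 6 without that library. For the libraries labelled Ago2KO_empty against T6B_MUT there were 1 higher and 4 lower with 28.8% called, and 0 and 5 without the second one. The median log2 change of the 10 was 0.02, -0.15, -0.03, -0.29 and -0.18 in these 5 comparisons, the last being -0.28 without that library, and the median of all tested genes between -0.00292 and 0.0268. Comparisons within an experiment share their control libraries. The calls over all genes also moved when the second library labelled Ago2KO_empty was left out. Against T6B_MUT they went from 3437 to 4212 in T6B_WT, 5975 to 6847 in Trim71KO_empty and 6201 to 5182 in Ago2KO_empty.

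**Figure D3:**
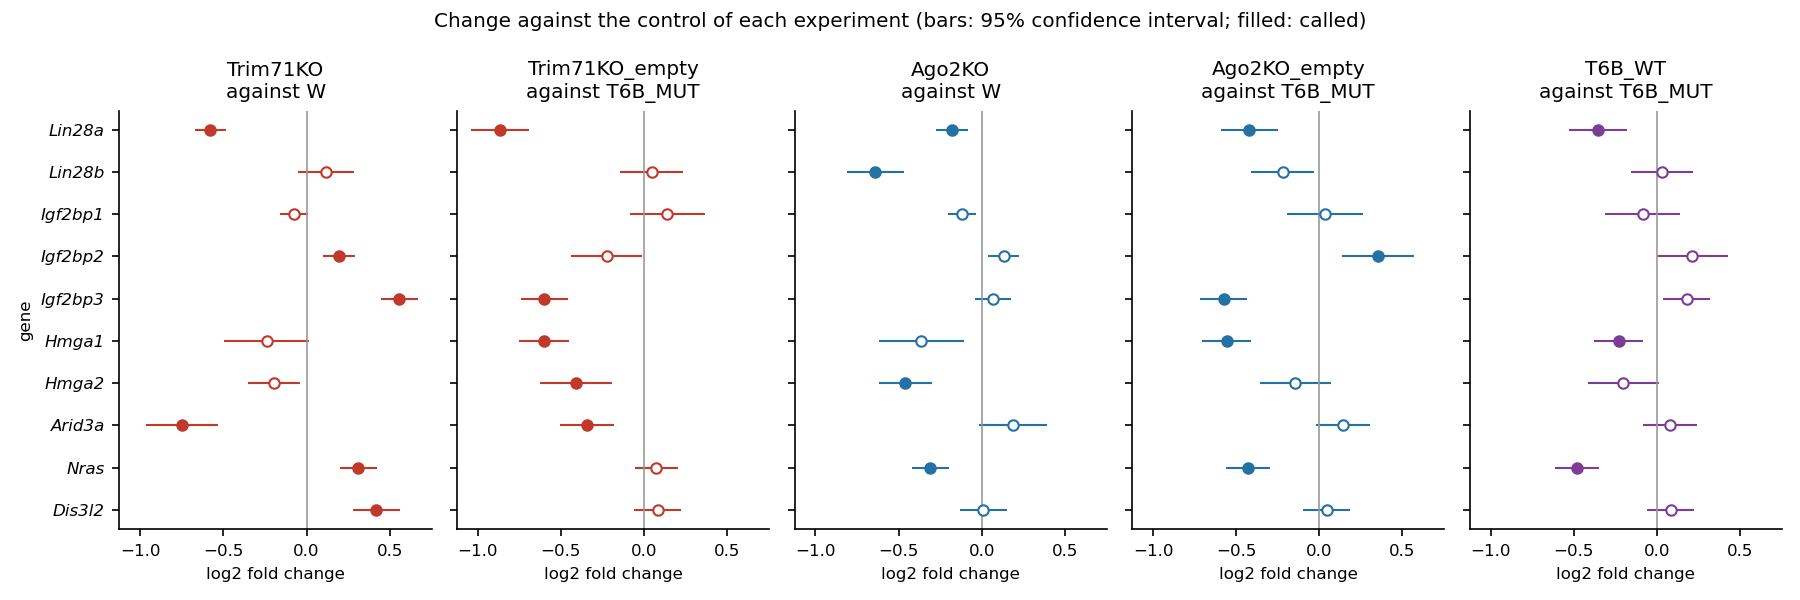
Log2 fold change (x axis) of the 10 genes in the 5 comparisons with a control, with 95% confidence intervals; filled points passed an adjusted p under 0.05. Lin28a is filled and below 0 in all 5 panels, from -0.18 in Ago2KO to -0.87 in Trim71KO_empty.

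Lin28a, on chromosome 4 (134003330 to 134018841, minus strand), was the only one of the 10 genes called in all 5 comparisons with a control, each time lower. Its CPM were 481, 506 and 515 in W, 325, 331 and 350 in Trim71KO and 444, 447 and 436 in Ago2KO. The 3 groups did not overlap, with Trim71KO lowest. The log2 change in Trim71KO was -0.58 (SE 0.044, edgeR adjusted p = 2.25e-07) and in Ago2KO -0.18 (SE 0.044, edgeR adjusted p = 0.0111). Trim71KO lay below Ago2KO by a log2 difference of -0.40 (SE 0.044, edgeR adjusted p = 6.83e-06). The smaller Ago2KO change was not called without W replicate 2 (edgeR adjusted p = 0.0542) or W replicate 3 (0.0623).

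In Experiment 2 Lin28a stood at 333, 330 and 330 CPM in T6B_MUT and at 239, 262 and 275 in T6B_WT. Trim71KO_empty had 153, 198 and 192 CPM, and the libraries labelled Ago2KO_empty 237, 249 and 256. Every library of the latter 3 groups lay below every T6B_MUT library. The log2 changes were -0.35 in T6B_WT (SE 0.082, edgeR adjusted p = 0.00580), -0.87 in Trim71KO_empty (SE 0.083, edgeR adjusted p = 3.47e-07) and -0.42 in Ago2KO_empty (SE 0.082, edgeR adjusted p = 0.00102). Without the second library labelled Ago2KO_empty the last was -0.44 (edgeR adjusted p = 0.00159). Lin28a was again lower with Trim71 edited than with Ago2 edited, by -0.45 (SE 0.083, edgeR adjusted p = 3.69e-04, and by -0.43 without that library). A short antisense gene, Gm13061, overlaps the locus, and the sources used here do not state whether strand was used in counting.

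Lin28b, the paralog on chromosome 10 (45376620 to 45486395, minus strand), fell in Ago2KO and was not called in Trim71KO. It was at 36.4, 32.4 and 33.8 CPM in W, 37.2, 40.3 and 33.8 in Trim71KO and 21.3, 24.4 and 20.3 in Ago2KO. Ago2KO lay below both other groups without overlap, and W and Trim71KO overlapped. The log2 change was -0.64 in Ago2KO (SE 0.081, edgeR adjusted p = 8.01e-05) and 0.12 in Trim71KO (95% interval -0.05 to 0.29, edgeR adjusted p = 0.289). The direct difference, Trim71KO minus Ago2KO, was 0.76 (SE 0.081, edgeR adjusted p = 5.16e-06). Lin28a and Lin28b thus differed in order: Lin28a was lower in Trim71KO than in Ago2KO, Lin28b higher.

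The Experiment 2 values of Lin28b were closer together. T6B_MUT had 28.1, 26.7 and 28.6 CPM, T6B_WT 25.5, 29.3 and 30.4, Trim71KO_empty 25.1, 30.9 and 30.2, and the libraries labelled Ago2KO_empty 23.1, 26.2 and 22.4. The first 3 groups overlapped, and Ago2KO_empty lay below T6B_MUT. The change there was -0.22 (SE 0.090, edgeR adjusted p = 0.0752), or -0.31 without the second library (edgeR adjusted p = 0.0201). In T6B_WT it was 0.03 (95% interval -0.16 to 0.22). Trim71KO_empty exceeded Ago2KO_empty by 0.27 (SE 0.091, edgeR adjusted p = 0.0315), a call that 4 of the 6 fits leaving out 1 of these libraries lost, with adjusted p from 0.0555 to 0.0942. Without the second library labelled Ago2KO_empty it was kept.

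The Igf2bp genes encode RNA-binding proteins that bind and stabilise mRNAs such as Myc and Igf2. Igf2bp1 (chromosome 11, 95957163 to 96005940), the most abundant of them, was called in none of the 5 comparisons with a control. It ranged from 622 to 636 CPM in W, 584 to 612 in Trim71KO and 561 to 592 in Ago2KO, both edited groups lying just below W. The log2 changes were -0.07 (95% interval -0.16 to 0.01) and -0.12 (-0.20 to -0.03, edgeR adjusted p = 0.0576). In Experiment 2 the libraries labelled Ago2KO_empty had 512, 672 and 442 CPM, the second far above the others, around 521 to 538 in T6B_MUT. Their change was 0.04 with the second library and -0.17 without it (edgeR adjusted p = 0.828 and 0.0932). T6B_WT was at 486 to 511 CPM, a log2 change of -0.09 (95% interval -0.31 to 0.14), and Trim71KO_empty at 557 to 604, a change of 0.14 (-0.09 to 0.37).

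Igf2bp2 (chromosome 16, 22059009 to 22163299) was at 71.8, 74.6 and 72.5 CPM in W, 83.6, 84.0 and 82.7 in Trim71KO and 80.5, 78.9 and 80.5 in Ago2KO. Both edited groups stood above W in every library. The increase in Trim71KO was called, at 0.19 (SE 0.045, edgeR adjusted p = 0.00377), and that in Ago2KO was 0.13 (SE 0.045, edgeR adjusted p = 0.0539). In Experiment 2 the groups spread further: 57.0, 56.2 and 56.9 CPM in T6B_MUT, 66.0, 64.2 and 67.0 in T6B_WT and 42.8, 50.5 and 52.2 in Trim71KO_empty. T6B_WT lay wholly above the control and Trim71KO_empty wholly below it. Neither passed the test with all libraries (0.21 and -0.23, edgeR adjusted p = 0.179 and 0.112), and both did without the second library labelled Ago2KO_empty (0.20 and -0.23, edgeR adjusted p = 0.0379 and 0.0123). Those labelled Ago2KO_empty held 65.1, 87.9 and 64.3 CPM. Their increase of 0.35 (SE 0.101, edgeR adjusted p = 0.0162) became 0.17 without the second one (edgeR adjusted p = 0.104). The call was also lost when any 1 of the T6B_MUT libraries was left out (0.33 to 0.34, edgeR adjusted p = 0.0504 to 0.0543). Trim71KO_empty was lower than Ago2KO_empty by -0.58 (SE 0.102, edgeR adjusted p = 3.81e-04), or -0.41 without it.

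Igf2bp3 (chromosome 6, 49085223 to 49214957) rose in Trim71KO and fell in Trim71KO_empty. Its CPM were 62.4, 62.2 and 59.1 in W, 89.4, 87.6 and 93.5 in Trim71KO and 62.1, 67.0 and 63.6 in Ago2KO. Trim71KO stood apart from both other groups, which overlapped. The log2 change was 0.56 in Trim71KO (SE 0.051, edgeR adjusted p = 1.27e-06) and 0.07 in Ago2KO (95% interval -0.04 to 0.18). In Experiment 2 it was at 111, 107 and 118 CPM in T6B_MUT and 122, 127 and 131 in T6B_WT. Both edited groups lay far lower, at 69.0, 77.8 and 74.5 CPM in Trim71KO_empty and 73.2, 80.6 and 71.8 in the libraries labelled Ago2KO_empty. The changes were -0.60 (SE 0.068, edgeR adjusted p = 2.54e-06) and -0.57 (SE 0.068, edgeR adjusted p = 7.13e-06), the latter -0.64 without the second library. T6B_WT differed from T6B_MUT by 0.18 (SE 0.067, edgeR adjusted p = 0.0785). The 2 empty-plasmid groups overlapped, with a difference of -0.03 (95% interval -0.17 to 0.11), or 0.03 without the second library. Malsu1 and Gm18010 lie on the opposite strand of the locus.

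HMGA1 and HMGA2 are chromatin proteins that bind the minor groove of AT-rich DNA, and Hmga2 is among the best studied let-7 targets. Hmga2 (chromosome 10, 120361275 to 120476469) was at 19.8, 19.2 and 18.3 CPM in W, 17.3, 17.0 and 15.7 in Trim71KO and 13.2, 15.1 and 13.6 in Ago2KO. The 3 groups did not overlap and Ago2KO was lowest. The decrease in Ago2KO was called, at -0.46 (SE 0.074, edgeR adjusted p = 5.53e-04), while Trim71KO gave -0.20 (95% interval -0.35 to -0.04) with an edgeR adjusted p of 0.0508. That p lay under 0.05 with RLE size factors, with no filter on low counts, with a CPM filter and with only the 2 groups in the fit (0.0379 to 0.049), and over it in all 6 fits that left out 1 library. The difference between the lines was 0.26 (SE 0.075, edgeR adjusted p = 0.0136), which 4 of 6 fits leaving out 1 library did not call (adjusted p from 0.0501 to 0.064).

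Experiment 2 had Hmga2 at 18.8, 18.2 and 20.1 CPM in T6B_MUT, 16.4, 15.3 and 17.9 in T6B_WT and 14.9, 14.5 and 13.6 in Trim71KO_empty. These 3 groups again stood in separate ranges. Trim71KO_empty was called lower, at -0.41 (SE 0.103, edgeR adjusted p = 0.00574), and T6B_WT was at -0.20 (SE 0.102, edgeR adjusted p = 0.202). The libraries labelled Ago2KO_empty, at 18.4, 19.3 and 14.0 CPM, overlapped the control (-0.14, 95% interval -0.36 to 0.07), with -0.25 and an edgeR adjusted p of 0.0858 when the second was left out.

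Hmga1 (chromosome 17, 27556497 to 27563674) may share reads with the near-identical copy Hmga1b, itself at 103.3 to 279.4 CPM. How reads were divided between the copies was not examined, so the Hmga1 values are uncertain. W had 273, 326 and 328 CPM, Trim71KO 249, 234 and 303, and Ago2KO 264, 216 and 240. Ago2KO lay below W and Trim71KO overlapped it. Neither change was called, with -0.24 in Trim71KO (SE 0.113, edgeR adjusted p = 0.142) and -0.36 in Ago2KO (SE 0.114, edgeR adjusted p = 0.0557). DESeq2 called the latter (adjusted p = 0.00341). In Experiment 2 Hmga1 stood at 204, 201 and 207 CPM in T6B_MUT, above 182, 176 and 163 in T6B_WT. Trim71KO_empty had 121, 133 and 149 CPM and the libraries labelled Ago2KO_empty 133, 140 and 143. Both fell, by log2 changes of -0.60 (SE 0.071, edgeR adjusted p = 4.71e-06) and -0.56 (SE 0.071, edgeR adjusted p = 1.79e-05), the latter -0.58 without the second library. The T6B_WT decrease of -0.23 (SE 0.071, edgeR adjusted p = 0.0327) was not called in 5 of the 6 fits that left out a library of the 2 groups, with adjusted p from 0.0659 to 0.125.

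Arid3a encodes an AT-rich DNA-binding transcription factor (chromosome 10, 79927043 to 79955018). It was low in the Trim71-edited cells of both experiments: 9.51, 9.20 and 10.9 CPM in Trim71KO against 15.4, 16.4 and 18.2 in W, and 13.0, 14.7 and 13.3 in Trim71KO_empty against 17.4, 17.7 and 16.9 in T6B_MUT. Neither pair of groups overlapped. The log2 changes were -0.75 (SE 0.101, edgeR adjusted p = 4.90e-05) and -0.34 (SE 0.078, edgeR adjusted p = 0.00281). Ago2KO, at 20.5, 16.3 and 19.9 CPM, overlapped W (0.19, 95% interval -0.02 to 0.39). T6B_WT had 18.1, 19.02 and 17.8 CPM (0.08, interval -0.08 to 0.24). In those labelled Ago2KO_empty it was at 18.8, 20.5 and 18.2 CPM (0.14, interval -0.02 to 0.30, and 0.08 without the second). Set directly against the Ago2-edited line, Trim71KO lay at -0.94 (SE 0.101, edgeR adjusted p = 5.07e-06) and Trim71KO_empty at -0.49 (SE 0.079, edgeR adjusted p = 1.02e-04, or -0.43 without the second library). Arid3a and Lin28a were called lower with Trim71 editing in both experiments.

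Nras encodes a small GTPase that passes growth factor signals to the MAP kinase cascade (chromosome 3, 103058285 to 103067914). It fell in all 3 comparisons that touch the Argonaute pathway. Experiment 1 had 186, 183 and 175 CPM in W, 227, 235 and 212 in Trim71KO and 141, 155 and 143 in Ago2KO. The 3 groups were apart, with Trim71KO above W and Ago2KO below it. The changes were 0.31 (SE 0.053, edgeR adjusted p = 3.68e-04) and -0.31 (SE 0.053, edgeR adjusted p = 9.25e-04), and the direct difference 0.62 (SE 0.053, edgeR adjusted p = 5.32e-07). Experiment 2 had 192, 188 and 207 CPM in T6B_MUT and 137, 140 and 143 in T6B_WT. The libraries labelled Ago2KO_empty were at 143, 146 and 148 CPM, all below T6B_MUT, and Trim71KO_empty at 190, 214 and 213, overlapping it. The decreases were -0.48 in T6B_WT (SE 0.063, edgeR adjusted p = 3.64e-05) and -0.43 in Ago2KO_empty (SE 0.063, edgeR adjusted p = 7.83e-05, and -0.45 without the second library). Trim71KO_empty was at 0.07 (95% interval -0.06 to 0.20), and above Ago2KO_empty by 0.50 (SE 0.063, edgeR adjusted p = 6.35e-06, or 0.51 without it). The Nras UTR is the only one of the 10 with 2 miR-291a or miR-302b matches, as many as or fewer than in 7.66% of UTRs of like length. Whether these matches bear on the Nras changes was not tested.

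Dis3l2, the exonuclease for tailed let-7 precursors (chromosome 1, 86703808 to 87050095), rose in Trim71KO alone among the 5 comparisons. It was at 20.6, 23.6 and 21.8 CPM in W, 27.6, 30.7 and 29.9 in Trim71KO and 22.3, 22.0 and 22.0 in Ago2KO. Trim71KO stood above both other groups, and Ago2KO lay within the range of W. The change in Trim71KO was 0.42 (SE 0.066, edgeR adjusted p = 1.89e-04), and 0.41 against Ago2KO (SE 0.066, edgeR adjusted p = 2.10e-04). In Experiment 2 the 12 libraries lay between 32.2 and 36.9 CPM and the groups overlapped. The log2 changes there were 0.08 in T6B_WT, 0.08 in Trim71KO_empty and 0.05 in Ago2KO_empty, with 95% intervals from -0.10 to 0.23 over the 3, and 0.02 in the last without its second library. Annotated genes overlap the locus on both strands (9 on the same strand, 3 on the other), so some reads may be shared.

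Between the edited lines themselves, Trim71KO against Ago2KO gave 5 higher and 2 lower calls among the 10 (34.2% of all genes called). Trim71KO_empty against Ago2KO_empty gave 2 higher and 3 lower (31.6% called), or 3 and 3 without the second library labelled Ago2KO_empty, Igf2bp1 being the call gained (0.30, SE 0.071, edgeR adjusted p = 0.00304). Over all genes the calls went from 6801 to 6042 without that library. Lin28a and Arid3a were lower and Nras and Lin28b higher with Trim71 edited than with Ago2 edited in both experiments.

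The change with Trim71 editing was then compared between the experiments in 1 fit of all 21 libraries, as the log2 change of Trim71KO_empty against T6B_MUT minus that of Trim71KO against W. The experiments differ in plasmid, in control and in library set, which cannot be told apart. Of the 10 genes, 1 had a called positive and 3 a called negative difference, where 10.1% of all genes were called. Igf2bp3 differed most, by -1.16 (SE 0.084, edgeR adjusted p = 5.02e-10): it rose in one experiment and fell in the other. Igf2bp2 differed by -0.42 (SE 0.115, edgeR adjusted p = 0.0188), Dis3l2 by -0.34 (SE 0.092, edgeR adjusted p = 0.0179) and Arid3a by 0.41 (SE 0.127, edgeR adjusted p = 0.0395). The last 3 were each lost in 5 to 7 of the 12 fits that left out 1 library, and the Igf2bp3 call in none. Without the second library labelled Ago2KO_empty the count was 2 positive and 3 negative, with Igf2bp1 added (0.22, edgeR adjusted p = 0.0494). The calls over all genes went from 2237 to 2646 in that fit. Lin28a differed by -0.29 (SE 0.102, edgeR adjusted p = 0.0716).

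For Ago2 editing the same difference was called for Igf2bp3 alone, at -0.65 (SE 0.084, edgeR adjusted p = 1.61e-05; -0.70 without the second library labelled Ago2KO_empty), with 2.13% of all genes called. T6B_WT and Ago2KO both act on the Argonaute pathway, and their changes were compared likewise. Here 1 of the 10 genes was called (3.16% of all genes): Lin28b, which fell in Ago2KO and did not differ beyond its spread in T6B_WT, at 0.67 (SE 0.125, edgeR adjusted p = 0.00154). This comparison crosses the experiments. The Ago2 change of Lin28b differed between them by 0.41, not called (SE 0.125, edgeR adjusted p = 0.0955). It was 0.35 without the second library labelled Ago2KO_empty (edgeR adjusted p = 0.185). For Lin28a and Nras the difference between T6B_WT and Ago2KO was -0.17 each, with 95% intervals of -0.38 to 0.03 and -0.34 to 0.003.

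**Figure D4:**
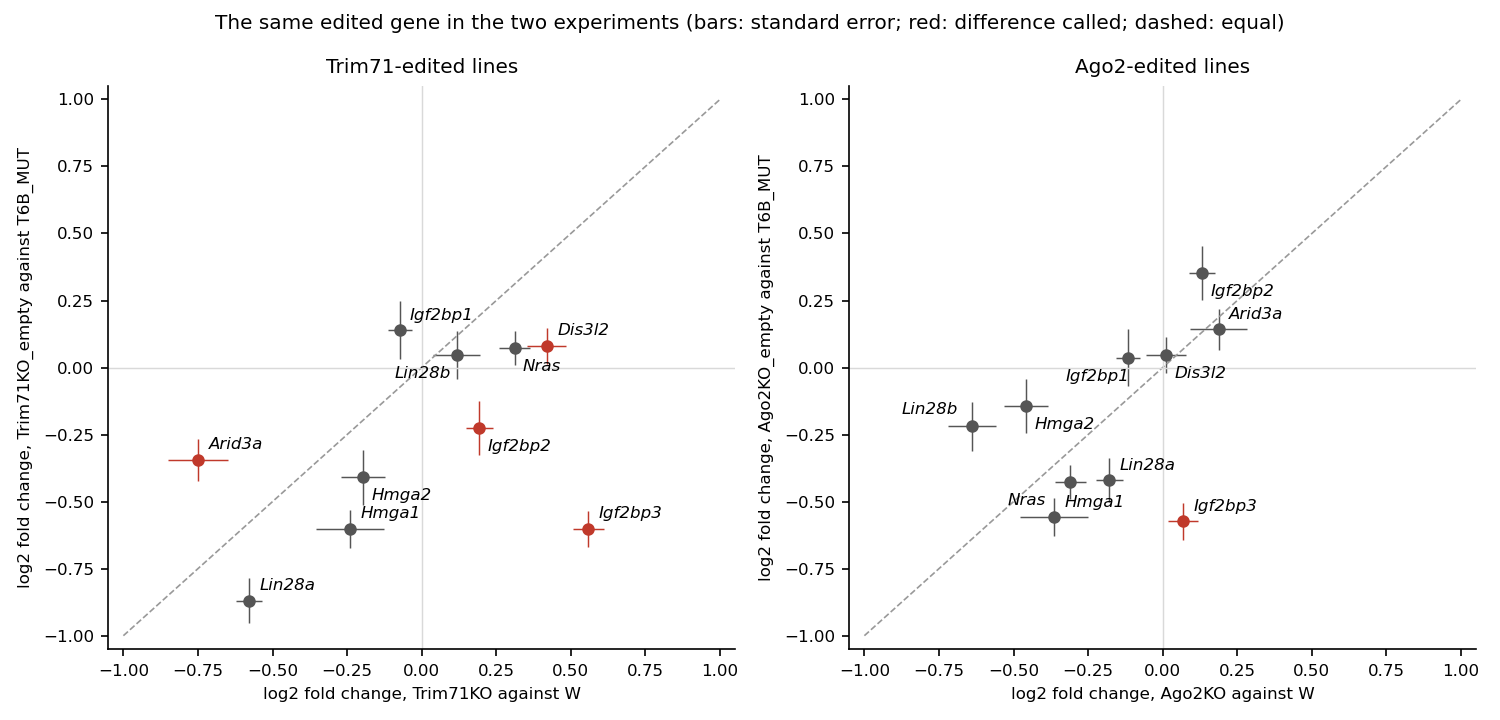
Log2 fold change of each gene in Experiment 1 (x axis) against Experiment 2 (y axis) for the Trim71-edited (left) and Ago2-edited (right) cells; bars are standard errors and the dashed line marks equal change. Red points had a called difference between the experiments, Igf2bp3 in both panels, with 0.56 and -0.60 in the left one.

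Other genes of the pathway were read from 4 lists, by counts. Of all genes tested, 16.9% were called higher and 15.6% lower in Trim71KO, 10.2% and 7.78% in Ago2KO, 9.29% and 6.69% in T6B_WT, 14.4% and 13.4% in Trim71KO_empty, and 16.4% and 12.4% in Ago2KO_empty. These shares are at the edgeR adjusted p and do not apply to the unadjusted or DESeq2 counts of the lists. Of 15 genes of let-7 processing and LIN28 partners, 6 rose and 1 fell in Trim71KO against W (median log2 change 0.14). Msi1, an RNA-binding partner of LIN28, rose most, from 4.60 ± 0.160 to 8.65 ± 1.13 CPM (SD, n = 3, log2 0.92, edgeR adjusted p = 5.29e-05). Tarbp2, a Dicer partner, fell from 62.3 ± 3.65 to 45.6 ± 1.57 (log2 -0.45, edgeR adjusted p = 5.82e-05). In Ago2KO 2 rose and 0 fell (6 and 0 at an unadjusted p under 0.05, 1 and 0 in DESeq2), the largest being the uridylyl transferase Tut7, from 42.6 ± 1.79 to 48.6 ± 2.26 CPM (log2 0.19, edgeR adjusted p = 0.0392). T6B_WT had 0 calls in either direction, also 0 at an unadjusted p under 0.05 and 0 in DESeq2. Without the second library labelled Ago2KO_empty 1 rose. Trim71KO_empty had 1 higher (Tut7, log2 0.48, edgeR adjusted p = 6.21e-05) and 4 lower, with Hnrnpa1 the largest decrease (-0.28, edgeR adjusted p = 0.0161). The libraries labelled Ago2KO_empty had 3 higher and 0 lower (5 and 0 unadjusted, 4 and 0 in DESeq2), or 2 and 1 without the second. Tut4, the other uridylyl transferase, led there at 0.74 (edgeR adjusted p = 0.0388), or 0.41 without it (edgeR adjusted p = 0.0204). Its libraries were uneven, at 80.02, 117.3 and 54.99 CPM against 47.01 to 52.03 in T6B_MUT, the third being close to the control.

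The let-7 loci themselves were barely covered. Rows for 3 let-7 hairpins held 4 to 41 counts per library, and mature let-7 is too short for such libraries, so its level is not known from these data. With 2 host transcripts, 5 rows were tested, and 1 was called: Mir100hg, which rose in Trim71KO from 0.516 ± 0.214 to 1.65 ± 0.184 CPM (log2 1.66, SE 0.27, edgeR adjusted p = 2.55e-04). The other 4 comparisons with a control had 0 calls in this list, and DESeq2 also called 0. At an unadjusted p under 0.05 there were 0 in Ago2KO and T6B_WT and 1 higher in each empty-plasmid group.

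The 23 other let-7 targets include Trim71, the edited gene. Of them, 7 rose and 9 fell in Trim71KO (median -0.19), and 6 rose and 4 fell in Ago2KO (median 0.08). T6B_WT had 8 higher and 1 lower (median 0.19), and without the second library labelled Ago2KO_empty 9 and 2. Trim71KO_empty had 4 and 9 (median -0.16), or 5 and 10 without that library. The libraries labelled Ago2KO_empty had 9 and 2 (median 0.32), or 6 and 4 (median 0.07) without the second. The cyclin Ccnd2 rose most in Ago2KO, from 15.9 ± 1.19 to 28.7 ± 2.11 CPM (log2 0.85, edgeR adjusted p = 5.86e-06), and in T6B_WT, from 2.74 ± 0.286 to 7.94 ± 0.680 (log2 1.54, edgeR adjusted p = 0.0128). Myc fell most in both, by log2 changes of -0.51 and -0.68 (edgeR adjusted p = 0.00447 and 6.74e-04). In Trim71KO the largest changes were Igdcc3 (0.73, edgeR adjusted p = 5.06e-04) and Thbs1 (-2.14, edgeR adjusted p = 5.72e-07). Igdcc3 also led the increases in Trim71KO_empty (0.60, edgeR adjusted p = 0.0103), and Fignl2 the decreases (-1.19, edgeR adjusted p = 1.47e-07). In the libraries labelled Ago2KO_empty these were Onecut2 (1.52, edgeR adjusted p = 0.0187, or 1.06 without the second) and Hras (-0.35, edgeR adjusted p = 0.00207, or -0.33). Onecut2 was low and uneven there, at 3.79 ± 2.02 CPM (SD, n = 3) against 1.33 ± 0.250 in T6B_MUT.

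The 9 paralogs and partners of the 10 genes were the last list. In Trim71KO 2 rose and 2 fell (median -0.09), in Ago2KO 1 and 3 (-0.11), in T6B_WT 2 and 2 (0.02), in Trim71KO_empty 0 and 2 (-0.10, with 1 and 2 unadjusted and 0 and 2 in DESeq2) and in Ago2KO_empty 1 and 3 (0.11, or -0.03 without the second library, with the same counts). E2f2, a cell cycle transcription factor, was called in the directions of Nras in Trim71KO, Ago2KO and T6B_WT. It was at 17.4 ± 0.887 CPM in W, 28.5 ± 1.04 in Trim71KO (log2 0.71, edgeR adjusted p = 1.20e-06) and 12.1 ± 0.412 in Ago2KO (-0.53, edgeR adjusted p = 8.21e-05). It fell from 14.7 ± 0.344 to 8.35 ± 0.826 CPM in T6B_WT (-0.81, edgeR adjusted p = 2.66e-05). E2f2 was at 7.651 to 9.251 CPM in the libraries labelled Ago2KO_empty and 15.2 to 19.51 in Trim71KO_empty, against 14.39 to 15.06 in T6B_MUT. Its paralog E2f3 was at 67.79 to 69.26 CPM in Trim71KO and 36.95 to 39.47 in Ago2KO, against 49.12 to 51.32 in W. In T6B_WT E2f3 was at 37 to 39.97 CPM against 43.91 to 48.45 in T6B_MUT. H19, the imprinted RNA that binds let-7, fell from 3.39 ± 0.271 CPM in W to 0.980 ± 0.110 in Trim71KO and 2.09 ± 0.296 in Ago2KO (-1.78 and -0.68, edgeR adjusted p = 8.03e-07 and 0.00305). E2f1 was the increase in Ago2KO (0.33, edgeR adjusted p = 0.00760). Igf2, whose mRNA IGF2BP proteins bind, rose in T6B_WT from 1.78 ± 0.176 to 3.36 ± 0.399 CPM (0.92, edgeR adjusted p = 0.00408) and fell to 0.684 ± 0.334 in Trim71KO_empty (-1.35, edgeR adjusted p = 5.83e-04). Its counts were low, at 38, 11 and 27 in the Trim71KO_empty libraries. In Experiment 1 Igf2 was at 3.243 to 4.048 CPM in Ago2KO, overlapping W (3.284 to 4), and at 1.079 to 1.279 in Trim71KO. In the libraries labelled Ago2KO_empty Igf2 rose by 1.39 (edgeR adjusted p = 6.34e-05, or 1.24 without the second) and Arid3c fell by 1.54 on the log2 scale (edgeR adjusted p = 0.00557, or by 1.64 without the second). Arid3c was barely covered, with 7, 6 and 4 counts in these libraries against 26, 16 and 23 in T6B_MUT.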

How the data were processed

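RNA-seq was measured in 21 libraries (TruSeq stranded total RNA). Per the submitters' processing notes, reads were handled with bcl2fastq 2.17 and STAR 2.7.3a on GRCm38/mm10. The counting tool and strand setting are not given in the sources used here. The authors deposited whole-number counts and RPKM values per gene. The counts were tested as deposited, and the RPKM values served only to order genes by level. Symbols were completed from Ensembl IDs (22480 of 22512 rows matched GENCODE M21). Genes passing edgeR's filterByExpr (minimum count 10) were fitted in R 4.3.3 with edgeR 4.0.16 (TMM, robust quasi-likelihood F test, two-sided, Benjamini-Hochberg), with 9, 12 or 21 libraries per fit. The method was tested on simulated data. DESeq2, other filters, scalings, a replicate block and leaving out libraries were alternatives. Seed matches were counted in the longest GENCODE M21 3′ UTR, with RefSeq miRNA sequences.

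Named genes were all 10 members and, per list and comparison with a control, the called gene with the largest increase and decrease. E2f2, E2f3 and Nras were set side by side after their values were seen. Members and lists were chosen with earlier results of these data known. Acvr1c, Mir98, Mir99ahg, Elf5, Mesp1 and Postn matched no row. P-values measure the spread between libraries that the design text calls biological replicates.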

Additional observations from a re-analysis of the deposited data

Results flagged for a closer look

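For 5 results the change differed between Experiment 1 and Experiment 2 and 1 between T6B_WT and Ago2KO, each by a test of the difference itself in edgeR. The Trim71 change, Experiment 2 minus Experiment 1, was -1.16 for Igf2bp3 (SE 0.084, edgeR adjusted p = 5.02e-10), -0.42 for Igf2bp2 (edgeR adjusted p = 0.0188), -0.34 for Dis3l2 (edgeR adjusted p = 0.0179) and 0.41 for Arid3a (edgeR adjusted p = 0.0395). The Ago2 change of Igf2bp3 differed by -0.65 (edgeR adjusted p = 1.61e-05), and Igf2bp3 lay lower in both empty-plasmid groups than in both T6B groups, without overlap. The T6B_WT change of Lin28b minus its Ago2KO change was 0.67 (edgeR adjusted p = 0.00154). Plasmid, control and library set differ between the experiments and cannot be told apart.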

How the results depend on the processing

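Of 100 member results, 64 kept their direction and their side of the threshold under every alternative run, 25 changed side and 11 changed sign, none of the latter called. Of the 41 called, 33 kept their call throughout. At an adjusted p under 0.01 the genes called were 4555 (Trim71KO) and 2147 (Ago2KO) against W, 1785 (T6B_WT), 3610 (Trim71KO_empty) and 3292 (Ago2KO_empty) against T6B_MUT, 4371 between the empty-plasmid groups, and 1062, 202 and 373 for the differences of Trim71, of Ago2 and of T6B_WT from Ago2KO. For the Trim71 difference 1 member was left. With only the 2 groups in the fit, T6B_WT against T6B_MUT called 6 members and 5632 genes. Leaving out 1 library gave 2045 to 4212 genes for that comparison and 3894 to 8083 for Ago2KO_empty against T6B_MUT, highest without Ago2KO_empty replicate 3. For the Ago2 difference it gave 269 to 1634 genes and 1 to 3 members, the highest values again without Ago2KO_empty replicate 3. For the Trim71 difference it gave 1 to 5 members. With all libraries there were 4, where 10.1% of all genes were called. The share of all genes in each of those fits is not given, so this range cannot be set against it. The sign of uncalled log2 changes turned for Dis3l2 in Ago2KO (-0.036 to 0.062), Lin28b in T6B_WT (-0.033 to 0.091) and in Trim71KO_empty (-0.012 to 0.13), and Igf2bp1 in Ago2KO_empty (-0.17 to 0.14). It also turned between the empty-plasmid groups for Hmga1 (-0.11 to 0.045), Igf2bp1 (-0.0012 to 0.30) and Igf2bp3 (-0.052 to 0.038), for Lin28b in the Trim71 difference (-0.13 to 0.022), and in the Ago2 difference for Igf2bp1 (-0.035 to 0.26), Arid3a (-0.16 to 0.028) and Dis3l2 (-0.030 to 0.098). The cause was not tested.

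With the replicate number as a block (replicate block), 6886 genes were called in Trim71KO against W. It brought 2 member results under the threshold, Hmga1 in Ago2KO (-0.36, edgeR adjusted p = 0.0404) and Lin28a in the Trim71 difference (-0.30, edgeR adjusted p = 0.0435), and changed no other. Deviations of same-numbered libraries correlated at -0.215 to 0.219 in Experiment 1 and -0.166 to 0.172 in Experiment 2. Those of differently numbered libraries ran from -0.263 to 0.186 and from -0.157 to 0.227. A correlation over 0.1 occurred in 4 of 9 same-numbered and 5 of 18 other pairs in Experiment 1, and in 3 of 18 and 3 of 36 in Experiment 2. The numbers were not taken to pair libraries, though these values do not settle it. The setting without Ago2KO_empty replicate 2 in comparisons of other groups was chosen after seeing the data.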
